A study of Mus musculus with 8 samples.

Results

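A set of 35 genes of cholesterol synthesis, uptake and efflux was compared between GPR35-positive and GPR35-negative cells sorted as colonic macrophages. They were chosen by gene symbol from lists of their known roles, and all 35 were among the 14980 genes of the count table and passed the filter on low counts. By role they were 18 enzymes of synthesis, 5 genes that control the sterol-sensing transcription factors, 8 genes of lipoprotein uptake, lysosomal handling and sterol transfer, and 4 genes of storage and export. GPR35 is a G protein-coupled receptor of intestinal and immune cells. The sort took MHCII+CD64+ cells from the lamina propria of the intestine of 4 male mice, described in the series as colonic. Each mouse gave a GPR35-positive and a GPR35-negative library (4 against 4). The name macrophage comes from this sort. By summed CPM, the GPR35-negative libraries held more of the B and plasma cell markers than of the macrophage markers, as given below. No treatment, genetic change, strain or age is given in the sources used here. Replicate numbers 1 to 4 stand for the 4 animals.

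As background, cells make cholesterol from acetyl-CoA through the mevalonate pathway, and the genes of that pathway are switched on together by SREBP-2, the product of Srebf2, when the membrane of the endoplasmic reticulum is poor in sterol. SCAP carries the SREBP precursors to the Golgi for cleavage, and the INSIG proteins hold SCAP back when sterol is plentiful. Macrophages also take up cholesterol with lipoproteins and dying cells, free it in the lysosome, store it as esters and release it to lipoprotein particles through ABC transporters and apolipoprotein E. Oxysterols that build up with a high sterol load activate the nuclear receptor LXR, which switches on several of the export genes.

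Of the 35 genes, 27 had an entry among the RefSeq promoter sequences (GRCm38.p6), and the 250 bases before each start were searched on both strands. TCACNCCAC, the form of the sterol regulatory element searched for, was in 1 of 20 synthesis and SREBP genes, Hmgcs1, and in 0 of 7 uptake, storage and export genes. It stood in 1.22% of all 27025 genes with a promoter entry. The CCAAT box, the letters read by NF-Y, a partner of SREBP, was in 18 of 20 and in 4 of 7, against 37.5% of all genes, and the GC box GGGCGG was in 19 of 20 and in 4 of 7, against 35.4%. The palindrome CACGTG was in 5 of 20 and 1 of 7 (6.86% of all), and DR4, the LXR-type direct repeat of AGGTCA with 4 bases between, in 0 of either (0.0148% of all). The 27025 genes were not limited to those expressed in these cells, as the members were. A gene with several start sites counted if any of its windows matched. The shares are therefore not from like genes, and whether the differences are particular to cholesterol genes was not tested. A match describes the letters of the window and not a bound site. The 150 bases before the start of 5 genes are shown because their RNA moved in different directions while their promoters carried the same CCAAT letters: Hmgcs1 and Mvd (synthesis, higher in GPR35-positive cells), Ebp (synthesis, lower), and Soat1 and Mylip (storage and uptake control, higher). Capitals mark TCACNCCAC in Hmgcs1 and the CCAAT box, written ATTGG where it lies on the other strand.
Hmgcs1 (chr13:119690201-119690350, plus strand): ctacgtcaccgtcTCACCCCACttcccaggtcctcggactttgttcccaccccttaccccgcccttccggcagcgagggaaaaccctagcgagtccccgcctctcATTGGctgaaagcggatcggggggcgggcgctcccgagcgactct
Mvd (chr8:122443423-122443572, minus strand): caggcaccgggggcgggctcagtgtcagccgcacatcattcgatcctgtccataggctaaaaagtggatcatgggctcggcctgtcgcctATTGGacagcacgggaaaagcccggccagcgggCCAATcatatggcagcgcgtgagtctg
Ebp (chrX:8193513-8193662, minus strand): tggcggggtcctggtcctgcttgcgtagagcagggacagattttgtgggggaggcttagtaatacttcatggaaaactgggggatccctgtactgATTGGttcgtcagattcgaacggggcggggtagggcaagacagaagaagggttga
Soat1 (chr1:156474329-156474478, minus strand): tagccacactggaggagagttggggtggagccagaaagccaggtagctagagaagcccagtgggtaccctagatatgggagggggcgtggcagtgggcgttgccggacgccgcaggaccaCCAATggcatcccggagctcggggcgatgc
Mylip (chr13:45389592-45389741, plus strand): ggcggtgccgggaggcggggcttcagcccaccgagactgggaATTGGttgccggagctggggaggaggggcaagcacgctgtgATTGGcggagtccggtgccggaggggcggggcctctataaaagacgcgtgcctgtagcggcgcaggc
The stretches of Mvd and Mylip each held 2 CCAAT boxes, and those of Hmgcs1, Ebp and Soat1 held 1.

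Total counts were 33769639 to 48599893 in GPR35-positive and 15996622 to 30066596 in GPR35-negative libraries. Gpr35 itself was at 73.3 against 2.97 CPM (counts-per-million, on TMM library sizes), in the direction of the sort. All 20 macrophage identity markers had counts in every library, but their summed level was 45384 to 53456 CPM in GPR35-positive and 4822 to 23481 CPM in GPR35-negative libraries. GPR35-negative replicate 1 held 23481 CPM of these markers, against 4822 to 11152 in the other GPR35-negative libraries. The 13 B and plasma cell markers summed to 1215 to 2656 CPM in GPR35-positive and 73559 to 143988 CPM in GPR35-negative libraries, of which Jchain, the joining chain of immunoglobulin, made up 10.9 ± 2.79% of all counts (SD, n = 4). Pax5, a B cell factor, was at 0 in at least 1 library of each population. The sums were 228 to 1146 against 3201 to 7533 CPM for 13 stromal, endothelial and muscle markers, 56.7 to 66.6 against 345 to 620.0 for 13 T and innate lymphoid markers, 91.1 to 164 against 202 to 559 for 12 epithelial markers, 130.2 to 179 against 118 to 235 for 11 granulocyte and mast cell markers and 152 to 513 against 90.9 to 258 for 9 dendritic cell markers. Some of these sums hide members that differ, named here after their values were seen. Cd28 (mean 10.1 against 254 CPM) and Cd2 (7.75 against 141) made up most of the GPR35-negative T and innate lymphoid sum. Il7r, at 30.9 against 17.1 CPM, was the 1 marker of these 13 that went the other way. In the granulocyte list Csf3r (127 against 24.2 CPM) and Prg2 (1.36 against 101) were opposed. So were Cd209a (195 against 7.49 CPM) and Ccr7 (41.1 against 79.2) in the dendritic list. Of the 12 epithelial markers, 3 went the other way from their sum, each with overlapping ranges. They were Cdh1 (9.03 against 6.32 CPM), Vil1 (2.81 against 2.10) and Fabp2 (0.787 against 0.600). The part of these other cells in the results on cholesterol genes was not tested. In such bulk samples, fewer cells of a type and less RNA per cell cannot be told apart.

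**Figure D1:**
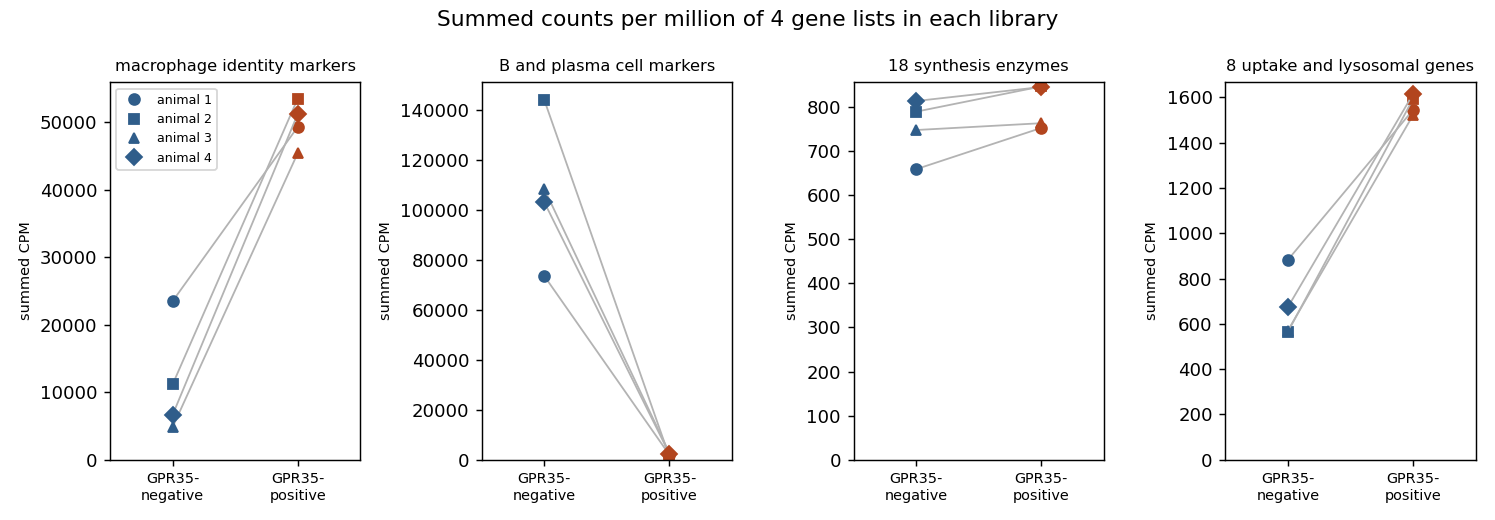
Summed CPM (vertical axes from 0) of the macrophage identity markers, the B and plasma cell markers, the 18 synthesis enzymes and the 8 uptake and lysosomal genes in each library, with a line joining the libraries of an animal. The synthesis sums of the populations overlap (752 to 846 against 659 to 813 CPM), while the other sums do not.

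With the usual scaling (TMM), 11 of 12 genes of uptake, storage and export were more abundant in GPR35-positive cells and 0 less abundant, and scaled to macrophage identity genes 0 were higher and 6 lower, where 0.458% of all genes tested were higher and 86% lower. The genes of synthesis and SREBP control lay on both sides, with 4 higher and 5 lower of 23. With the identity scaling 23 of 23 were lower, beside the same 86% of all genes. With TMM scaling, 38% of all genes tested differed by the edgeR quasi-likelihood test at an adjusted p under 0.05, 18.5% as higher and 19.5% as lower (2617 and 2769 of 14184). The shares in the synthesis and SREBP group, 17.4% higher and 21.7% lower, were therefore close to those of all genes, and the 91.7% higher in the other group were not. The median log2 fold change, GPR35-positive over GPR35-negative, was 0.16 for the 23 synthesis and SREBP genes, 1.41 for the 12 others and -0.05 for all genes tested. Scaled to the mean log level of the 20 macrophage identity genes, fold changes moved down with the median of all genes, which shifted by -2.62 to -2.67, and the medians became -2.45 and -1.03. Relative to the median of all genes, the 12 genes stood at 1.46 with the usual scaling and 1.64 with the identity scaling. The 23 genes stood at 0.21 and 0.22, and the macrophage identity list at 2.13 and 2.57. Because a scaling moves all genes of a library alike, these values could hardly differ between the scalings. The part of macrophage content in them was not tested. With the usual scaling the macrophage identity list itself had a median of 2.08, with 19 of 20 markers higher.

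Within animals, the median difference of the uptake, storage and export genes was 0.88, 1.47, 1.63 and 1.63 in replicates 1 to 4. That of the synthesis and SREBP genes was 0.17, -0.02, 0.14 and 0.09. The distance between the groups of genes was therefore above 0 in all 4 animals and smallest in replicate 1, at 0.71 against 1.49 to 1.53 in the others. Macrophage identity markers followed the same order of smallest animal, with medians of 1.12, 2.39, 3.21 and 2.86. Without replicate 4, 6 of the 12 genes were higher, where the calls over all genes went from 2617 to 1624 higher. Without replicate 3, 1 of the 23 genes was higher and 1 lower, where those over all genes were 1572 higher and 1712 lower, against 2617 and 2769 with all libraries.

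**Figure D2:**
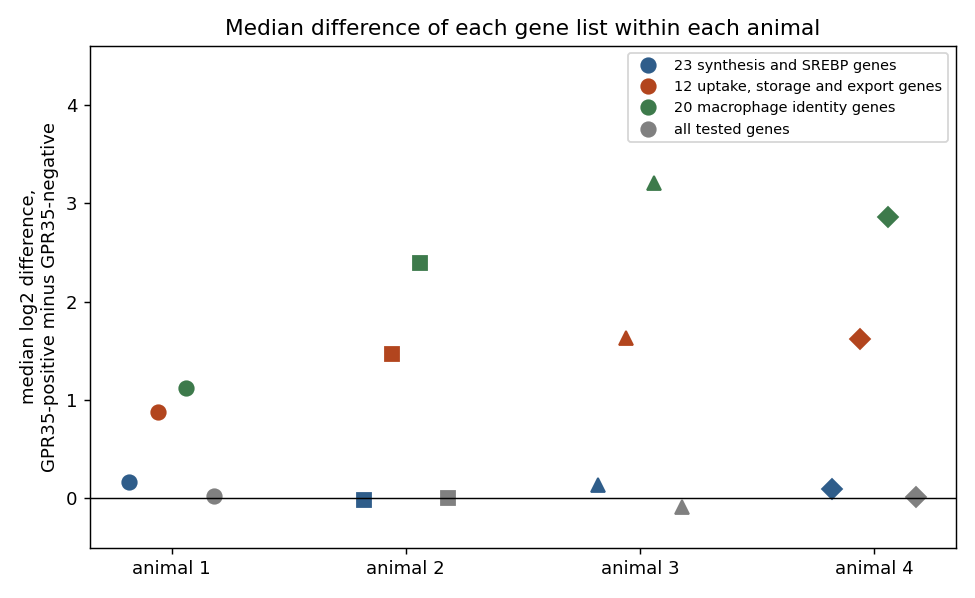
Median log2 difference of TMM-scaled CPM (GPR35-positive minus GPR35-negative library, vertical axis) of 4 gene lists in each animal. The 23 synthesis and SREBP genes lie near all tested genes, from -0.02 to 0.17, the 12 uptake, storage and export genes at 0.88 to 1.63, and the macrophage identity genes above both.

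**Figure D3:**
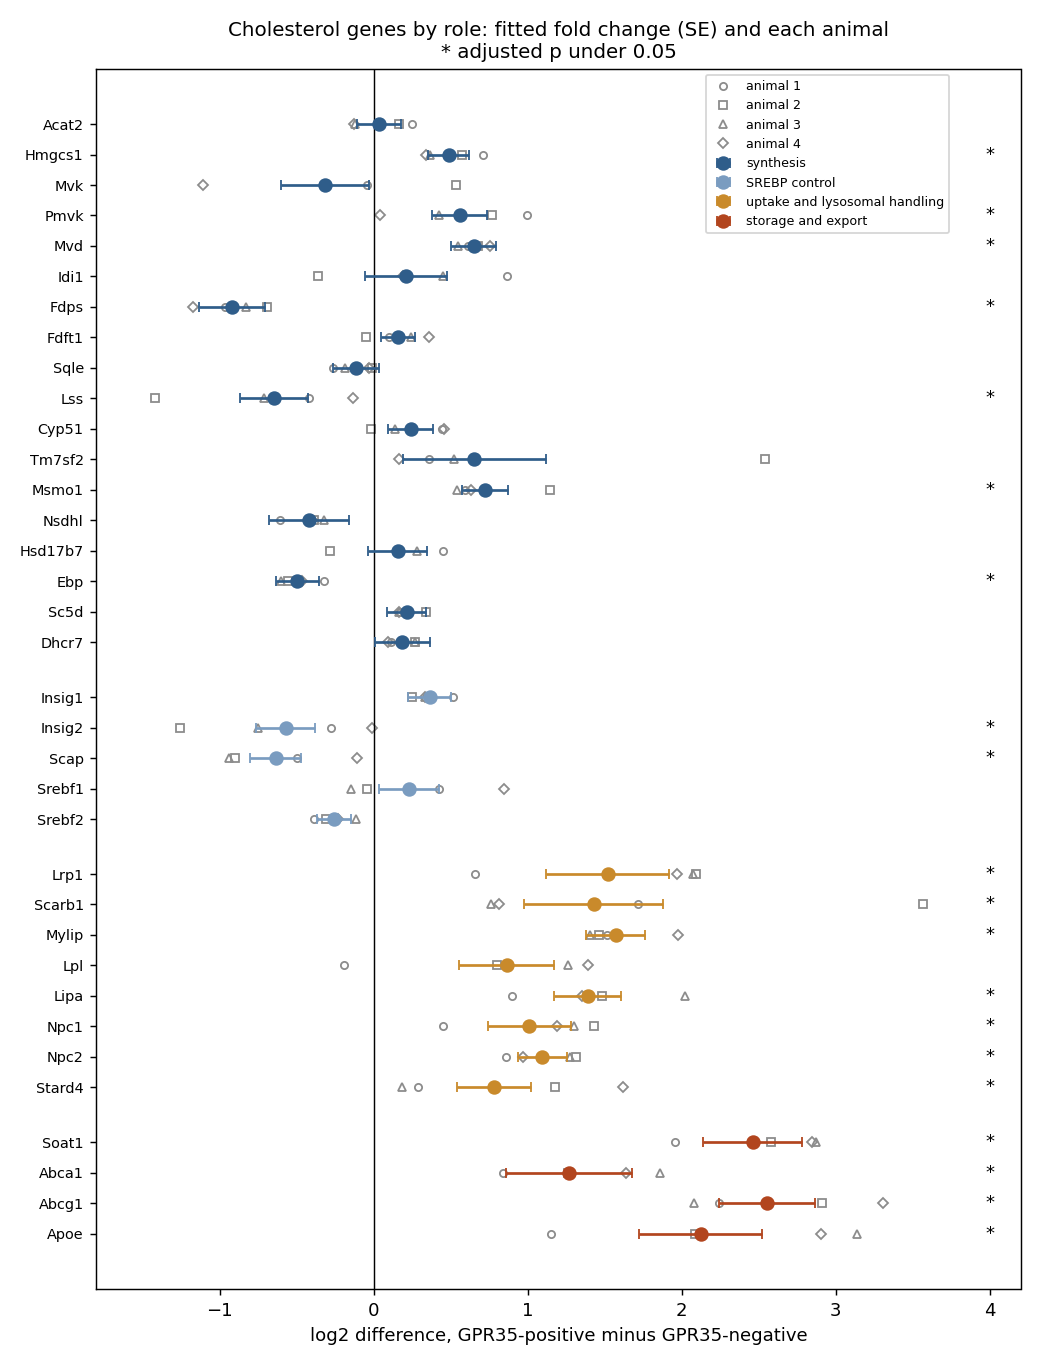
Fitted log2 fold change with its SE (filled points and bars) and the difference in each animal (open symbols) for the 35 genes, grouped by role, with a star for an edgeR adjusted p under 0.05. The points of synthesis and SREBP genes lie on both sides of 0, between -0.92 and 0.72, and those of the other 12 genes between 0.78 and 2.55, with TMM scaling (with identity scaling all but Soat1 and Abcg1 lie below 0).

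Enzymes of synthesis were 4 higher (22.2%), 3 lower (16.7%) and 11 not past the threshold. These shares were near those of all genes tested, 18.5% higher and 19.5% lower. The summed levels of the enzymes overlapped in range, at 802 ± 51.0 against 752 ± 68.0 CPM (SD, n = 4 in each). Their median log2 fold change was 0.17 with a range of -0.92 to 0.72. All 18 were negative with the identity scaling. CPM did not overlap between populations for 5 that were higher and 3 that were lower, where 21.5% and 20.6% of all genes tested did so.

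The early steps were mixed. Acat2, cytosolic acetoacetyl-CoA thiolase, stood at 0.03 ± 0.14 (SE; adjusted p = 0.867), and reads may be split with its close copy Acat3. Hmgcs1, HMG-CoA synthase and the gene with TCACNCCAC in its promoter, was at 97.9, 85.9, 89.3 and 101 CPM in GPR35-positive replicates 1 to 4 and at 59.8, 57.8, 69.4 and 79.5 CPM in GPR35-negative ones. The ranges did not overlap, and the fold change was 0.49 ± 0.13 (edgeR adjusted p = 0.0194). An antisense model, Gm48342, covers 12.1% of its exonic bases, and the libraries mark no strand. Mevalonate is then phosphorylated by Mvk and Pmvk and decarboxylated by Mvd. Mvk did not pass (-0.32 ± 0.29, adjusted p = 0.401) and had its highest level, 24.7 CPM, in GPR35-negative replicate 4. Pmvk was higher (0.56 ± 0.18, adjusted p = 0.037), with 25.4 and 24.6 CPM in the libraries of replicate 4. Mvd was at 25.5, 27, 22.8 and 23.6 CPM in GPR35-positive and 16.6, 16.9, 15.6 and 14 CPM in GPR35-negative libraries. It was higher in all 4 animals without overlap (0.65 ± 0.15, adjusted p = 0.00869). Idi1, which isomerizes the resulting isoprenoid unit, ranged from 13.6 to 33.5 CPM among GPR35-negative libraries and did not pass (0.21 ± 0.27, adjusted p = 0.555).

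Fdps, farnesyl diphosphate synthase, went the other way. It was at 29.7, 46.7, 46.4 and 45.7 CPM in GPR35-positive libraries and at 57.9, 75.4, 82.6 and 103 CPM in GPR35-negative libraries. Every GPR35-negative library lay above every GPR35-positive one, and the fold change of -0.92 ± 0.21 was the largest decrease among the 35 genes (edgeR adjusted p = 0.00941). A protein-coding model with a provisional name, Gm43738, shares 26.7% of the exonic bases of Fdps on the same strand, and the counting rule for such reads is not given in the sources used here. Fdft1, squalene synthase, did not pass (0.16 ± 0.11, adjusted p = 0.279). Its exons overlap those of Ctsb, cathepsin B, on the opposite strand over 18.3% of their bases. The library type does not mark strand, and Ctsb was far more abundant, at 5475 against 2265 CPM, so the Fdft1 value is uncertain. Sqle, squalene epoxidase, was lower in all 4 animals by small amounts but did not pass (-0.11 ± 0.15, adjusted p = 0.561).

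Sterol-forming steps after squalene were also split. Lss, lanosterol synthase, was lower, at 14.8, 9.17, 14.9 and 16.8 against 19.9, 24.6, 24.5 and 18.5 CPM (-0.65 ± 0.22, adjusted p = 0.0471). Msmo1, a C4-methylsterol oxidase, was at 107, 126, 101 and 129 CPM in GPR35-positive libraries and 70.8, 57.1, 69.5 and 83.6 CPM in GPR35-negative ones. It showed the largest called increase of the synthesis enzymes, with no overlap (0.72 ± 0.15, edgeR adjusted p = 0.00544). Per kilobase of gene length it was also the highest of these enzymes in GPR35-positive cells, at 63.6 ± 7.69 CPM per kilobase against 38.5 ± 5.95 in GPR35-negative cells, where Fdps was the highest (54.5 ± 12.8). Ebp, the sterol isomerase that shifts a double bond in the ring system, was at 51.2, 61.9, 52.0 and 51.9 CPM in GPR35-positive libraries. Its GPR35-negative values were all higher, at 64.1, 91.3, 79.0 and 71.7 CPM (-0.50 ± 0.14, adjusted p = 0.0216). Nsdhl, which acts in the same demethylation complex as Msmo1, was lower in all 4 animals with overlapping ranges and did not pass (-0.42 ± 0.26, adjusted p = 0.227), but did with the replicate block (-0.43, adjusted p = 0.0467). The ratio of Msmo1 to Ebp per length, a measure within each library that no scaling between libraries enters, was 2.05 ± 0.232 in GPR35-positive and 0.902 ± 0.235 in GPR35-negative libraries (mean ± SD, n = 4) without overlap. That of Hmgcs1 to Fdps was 0.946 ± 0.275 and 0.348 ± 0.0509, also without overlap. These pairs, and those given further on, were picked after their values were seen and are given with no test.

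The other synthesis genes did not pass. They were Cyp51, lanosterol demethylase (0.24 ± 0.14), Hsd17b7, the ketosteroid reductase (0.16 ± 0.19), Tm7sf2, a sterol C14-reductase (0.65 ± 0.46), Sc5d, a sterol desaturase (0.21 ± 0.13), and Dhcr7, which makes cholesterol from its last precursor (0.19 ± 0.18), with edgeR adjusted p from 0.207 to 0.55. Tm7sf2 rested on 22 counts in GPR35-negative replicate 2 (1.31 CPM), against 6.27 to 6.88 CPM in the other GPR35-negative libraries, and shares exonic bases with Vps51. Cyp51 passed without GPR35-negative replicate 2 (0.41, adjusted p = 0.0335). Fdps lies at chr3:89093588-89101967 and Msmo1 at chr8:64718123-64733578 (GRCm38, the build mm10). Their calls held in each of the 12 fits that left out an animal or a library. That of Mvd ended without replicate 3 (adjusted p = 0.0525), that of Hmgcs1 without replicate 1 or 3 and without GPR35-positive replicate 1 or 4 (adjusted p from 0.0514 to 0.0777). Ebp lost its call without replicate 3 or 4, GPR35-positive replicate 1, 3 or 4, and GPR35-negative replicate 2 or 3 (adjusted p from 0.0543 to 0.124). Pmvk lost it in 8 fits (adjusted p from 0.0524 to 0.162), all but those without replicate 4, GPR35-positive replicate 3 or GPR35-negative replicate 2 or 4, and with the replicate block (adjusted p = 0.0723). Lss kept it only without GPR35-negative replicate 4 (otherwise adjusted p from 0.0558 to 0.166) and lost it with the block (adjusted p = 0.0818) and with no count filter (0.0527). Library-size scaling ended all 4 higher calls, with adjusted p of 0.054 for Msmo1, 0.0703 for Mvd, 0.318 for Hmgcs1 and 0.273 for Pmvk, and upper-quartile scaling ended those of Hmgcs1 (0.0758) and Pmvk (0.101). The call of Pmvk also ended with limma voom (adjusted p = 0.0631), with the filter of 5 CPM (0.0612) and with DESeq2 and the replicate block (0.0664).

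Genes of SREBP control were 2 lower, Insig2 and Scap, with 3 of 5 not past the threshold. Of all genes tested, 18.5% were called higher and 19.5% lower. Srebf2, which encodes the main activator of the synthesis genes, was at 121, 142, 149.6 and 141 CPM in GPR35-positive libraries. It was at 159, 176, 162 and 166 CPM in GPR35-negative libraries, all above the former, but the difference did not pass (-0.26 ± 0.11, edgeR adjusted p = 0.0949). It did pass with library-size scaling (adjusted p = 0.00664), upper-quartile scaling (0.0314), the filter of 5 CPM (0.0399) and DESeq2 (0.0281). Srebf1, whose product acts more on fatty acid genes, overlapped and differed in direction among animals (0.23 ± 0.19, adjusted p = 0.375). Scap, the escort of both precursors, was at 47.7, 41.1, 42.9 and 45.8 CPM in GPR35-positive and 67.5, 76.9, 82.2 and 49.5 CPM in GPR35-negative libraries. The ranges did not overlap, though in replicate 4 the libraries lay close together (-0.64 ± 0.17, adjusted p = 0.016). A transcript model on the opposite strand, 5830462I19Rik, covers 13.2% of its exonic bases.

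The INSIG genes diverged. Insig1, itself a target of SREBP, was at 132, 104, 92.0 and 104 CPM in GPR35-positive and 92.5, 88.0, 73.0 and 82.8 CPM in GPR35-negative libraries. It was higher in all 4 animals with ranges that just overlapped, did not pass (0.36 ± 0.14, adjusted p = 0.0688) and did pass with the replicate block (0.36, adjusted p = 0.0426). Insig2, whose transcription does not follow SREBP in the same way, was at 33.1, 23.6, 27.2 and 36.9 CPM against 40.0, 56.5, 45.8 and 37.1 CPM. It was lower (-0.57 ± 0.19, adjusted p = 0.0433), not past the threshold with the block (adjusted p = 0.095), and nearly equal in the libraries of replicate 4. Within libraries the ratio of Insig1 to Insig2 per length was 4.08 ± 0.78 in GPR35-positive and 2.14 ± 0.45 in GPR35-negative cells, without overlap. The ratio of Srebf1 to Srebf2 was 0.558 ± 0.0913 and 0.395 ± 0.106, with overlap. The call of Scap ended without replicate 2 or 3 (adjusted p from 0.102 to 0.105). That of Insig2 ended without replicate 1, 2 or 3, GPR35-positive replicate 1, 2 or 3, and GPR35-negative replicate 2 or 3 (adjusted p from 0.07 to 0.224), with a smallest difference of -0.29 without replicate 2. It also ended with limma voom (adjusted p = 0.0524) and with DESeq2 and the replicate block (0.0501).

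Uptake and lysosomal genes were higher for 7 of 8, where 18.5% of all genes tested were, with a median of 1.24. All 8 were negative with the identity scaling, at -1.81 to -0.80, where the median of all genes was -2.67. Beside them, the summed macrophage markers were at 45384 to 53456 against 4822 to 23481 CPM, and their part was not tested. Lrp1, a large endocytic receptor for apolipoprotein E particles, was at 243, 164, 251 and 239 CPM in GPR35-positive and 154, 38.3, 59.4 and 60.8 CPM in GPR35-negative libraries. GPR35-negative replicate 1 was the highest of its group, and the ranges stayed apart (1.52 ± 0.40, edgeR adjusted p = 0.0166). Scarb1, the scavenger receptor for high-density lipoprotein, was at 136, 145, 126 and 117 CPM. In GPR35-negative cells it was at 41.4, 12.1, 74.4 and 66.9 CPM, lowest in replicate 2 (1.43 ± 0.45, adjusted p = 0.0352). Mylip, an LXR target whose product marks lipoprotein receptors for breakdown, was at 108, 90.1, 82.2 and 83.1 CPM against 37.6, 32.6, 31.0 and 21 CPM. The difference was even across animals, from 1.41 to 1.98 (1.57 ± 0.19, adjusted p = 5.03e-04).

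In the lysosome, Lipa, acid lipase, releases cholesterol from esters, and NPC2 hands it to NPC1 for exit through the membrane. Lipa was at 276, 335, 284 and 312 CPM in GPR35-positive and 148, 119.8, 70.0 and 123 CPM in GPR35-negative libraries, more than a 2-fold difference on average with no overlap (1.39 ± 0.22, edgeR adjusted p = 0.00164). Npc2 was at 611, 689, 539.5 and 575 against 337, 278, 223 and 293 CPM, again without overlap (1.09 ± 0.16, adjusted p = 0.00114). Npc1 was at 48.3, 42.6, 38.5 and 44.6 against 35.3, 15.7, 15.6 and 19.5 CPM, with GPR35-negative replicate 1 nearest to the GPR35-positive libraries (1.01 ± 0.27, adjusted p = 0.0172). The ratio of Npc1 to Npc2 per length was 0.0454 ± 0.0049 and 0.0467 ± 0.0131, and the ranges overlapped. Stard4, a carrier of sterol between membranes and a known SREBP target, was at 31.5, 36.0, 29.2 and 43.7 against 25.8, 15.9, 25.7 and 14.2 CPM. It was higher (0.78 ± 0.24, adjusted p = 0.0319) but not with the replicate block (adjusted p = 0.064), and its differences in replicates 1 and 3 were only 0.29 and 0.18. Lpl, lipoprotein lipase, was at 90.3, 92.4, 171 and 199 CPM against 103, 52.9, 71.3 and 75.9 CPM. GPR35-positive replicates 3 and 4 lay above all other libraries, replicate 1 was lower in the GPR35-positive library, and the gene did not pass (0.86 ± 0.31, adjusted p = 0.0531).

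Mylip (chr13:45389742-45411940), Lipa (chr19:34492316-34527474) and Npc2 (chr12:84754559-84773112) kept their calls in all 12 fits that left out an animal or a library. Lrp1 lost its call without replicate 3 or 4 (adjusted p from 0.0892 to 0.0965) and Npc1 without replicate 2, 3 or 4 (adjusted p from 0.0684 to 0.0923). Scarb1 lost it without replicate 1, 3 or 4, any of the GPR35-positive libraries, or GPR35-negative replicate 1 (adjusted p from 0.0571 to 0.122). Stard4 lost it without replicate 2 or 4, GPR35-positive replicate 1, 2 or 4, and GPR35-negative replicate 2 or 4 (adjusted p from 0.0545 to 0.146), with a difference of 0.52 without replicate 4. Lpl passed without replicate 1, GPR35-positive replicate 1 or 2, or GPR35-negative replicate 1 (adjusted p from 0.0214 to 0.0393), and with limma voom (adjusted p = 0.0161) and DESeq2 (0.0235). Library-size scaling ended the calls of Scarb1, Npc1 and Stard4, with adjusted p of 0.0856, 0.0526 and 0.141. Upper-quartile scaling ended those of Scarb1 (0.0508) and Stard4 (0.0573), and limma voom that of Stard4 (0.0508).

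Storage and export genes were higher for 4 of 4, where 18.5% of all genes tested were. These 4 had a median of 2.29 and held the 3 largest fold changes of the 35 genes (Abcg1, Soat1 and Apoe). With the identity scaling Apoe and Abca1 turned negative (-0.08 and -0.99), and Soat1 and Abcg1 stayed slightly above 0 (0.14 and 0.04, neither past the threshold). Soat1, the enzyme that esterifies cholesterol for storage, was at 248, 199, 168 and 200.2 CPM in GPR35-positive and 64.0, 33.2, 23 and 27.8 CPM in GPR35-negative libraries. Every GPR35-positive library lay far above the GPR35-negative ones (2.46 ± 0.32, edgeR adjusted p = 7.36e-04). Abcg1, the transporter that loads high-density lipoprotein, was at 51.5, 41.1, 36.0 and 40.7 against 10.9, 5.41, 8.47 and 4.06 CPM, also apart in all animals (2.55 ± 0.31, adjusted p = 5.41e-04). Abca1, which loads lipid-poor apolipoprotein, was at 212, 100.4, 134 and 127 CPM in GPR35-positive libraries. Its GPR35-negative values were 118, 41.8, 37.0 and 40.8 CPM, so that GPR35-negative replicate 1 overlapped the other population, although within each animal the GPR35-positive library was higher (1.27 ± 0.41, adjusted p = 0.0382).

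Apoe, the apolipoprotein through which macrophages release cholesterol, was at 26337, 29877, 27281 and 29745 CPM in GPR35-positive and 11882, 7046, 3098 and 3967 CPM in GPR35-negative libraries. The GPR35-positive libraries were within a narrow range and the GPR35-negative ones ordered by animal as the macrophage markers were (2.12 ± 0.40, adjusted p = 0.00383). It took 2.56 ± 0.164% of all counts in GPR35-positive and 0.71 ± 0.422% in GPR35-negative libraries (SD, n = 4). Per length it ranked 2 to 4 among all listed genes in GPR35-positive libraries and 3 to 10 in GPR35-negative libraries, and the next of the 35 genes, Npc2, ranked 339 to 393 and 627 to 1009. The other 34 genes summed to 3153 ± 104 and 1954 ± 139 CPM. The summed macrophage markers in GPR35-negative replicates 1 to 4 were 23481, 11152, 4822 and 6636 CPM, and their part in the Apoe difference was not tested.

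Within libraries, the ratio of Abcg1 to Abca1 per length was 0.547 ± 0.129 in GPR35-positive and 0.242 ± 0.111 in GPR35-negative cells, without overlap. The ratio of Soat1 to Lipa, storage over release of esters, was 0.423 ± 0.0907 and 0.196 ± 0.0545, also apart. Abca1 to Srebf2 was 0.473 ± 0.206 and 0.162 ± 0.113, with overlap through GPR35-negative replicate 1. Soat1 (chr1:156428108-156474328), Abcg1 (chr17:31057694-31117984) and Apoe (chr7:19696244-19701310) kept their calls in all 12 fits that left out an animal or a library, with log2 fold changes of 2.29 to 2.87, 2.36 to 2.83 and 1.89 to 2.63. Abca1 kept its call only without replicate 1, GPR35-positive replicate 2 or GPR35-negative replicate 1, and lost it in the other 9 (adjusted p from 0.0636 to 0.14) and with library-size scaling (adjusted p = 0.0776). With the replicate block it passed more clearly (1.40, adjusted p = 0.00265).

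**Figure D4:**
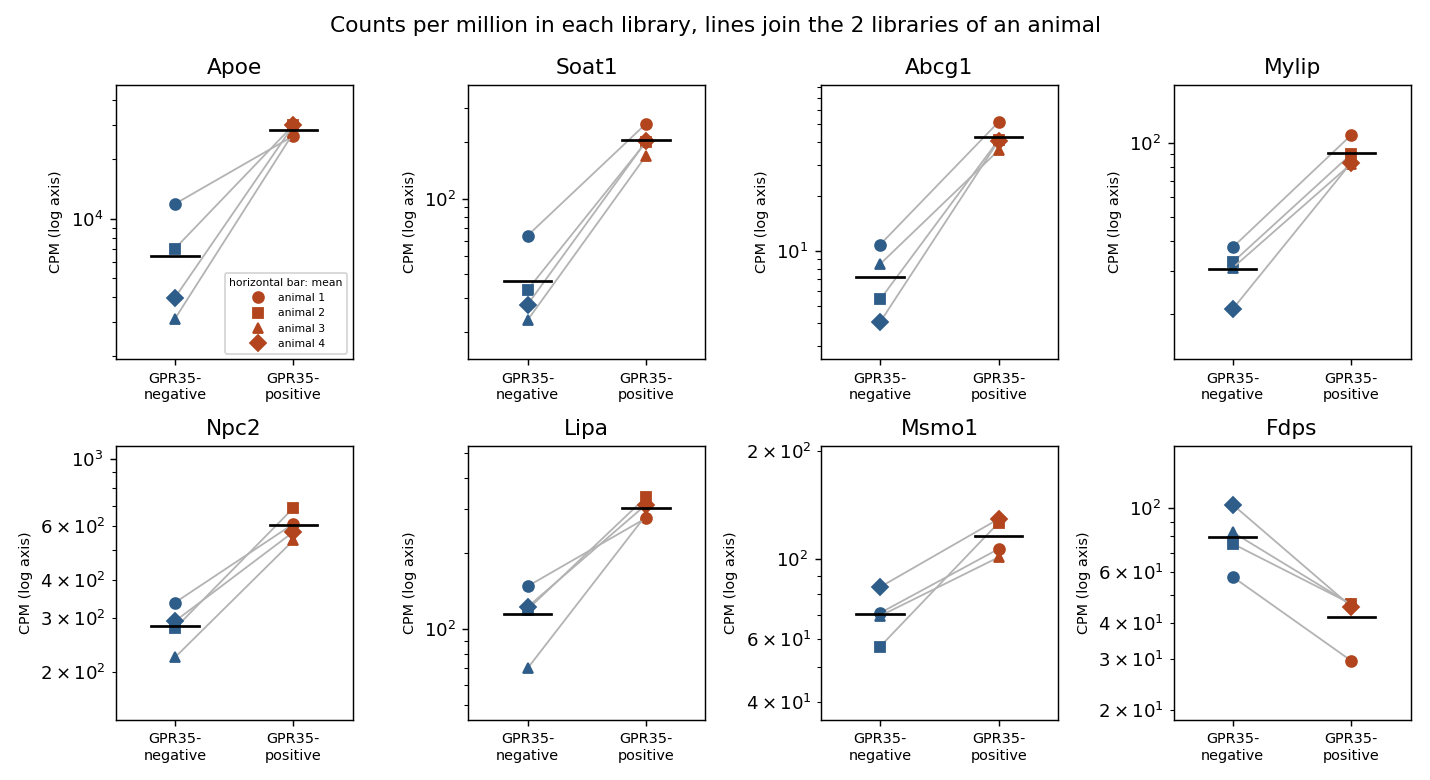
CPM (log axes) of 8 genes in each library, with lines joining the libraries of an animal and bars at the group means. Apoe, Soat1, Abcg1, Mylip, Npc2, Lipa and Msmo1 rise and Fdps falls from GPR35-negative to GPR35-positive in all 4 animals, without overlap between the groups, although scaled to the macrophage identity genes only Soat1 and Abcg1 remain above 0.

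**Figure D5:**
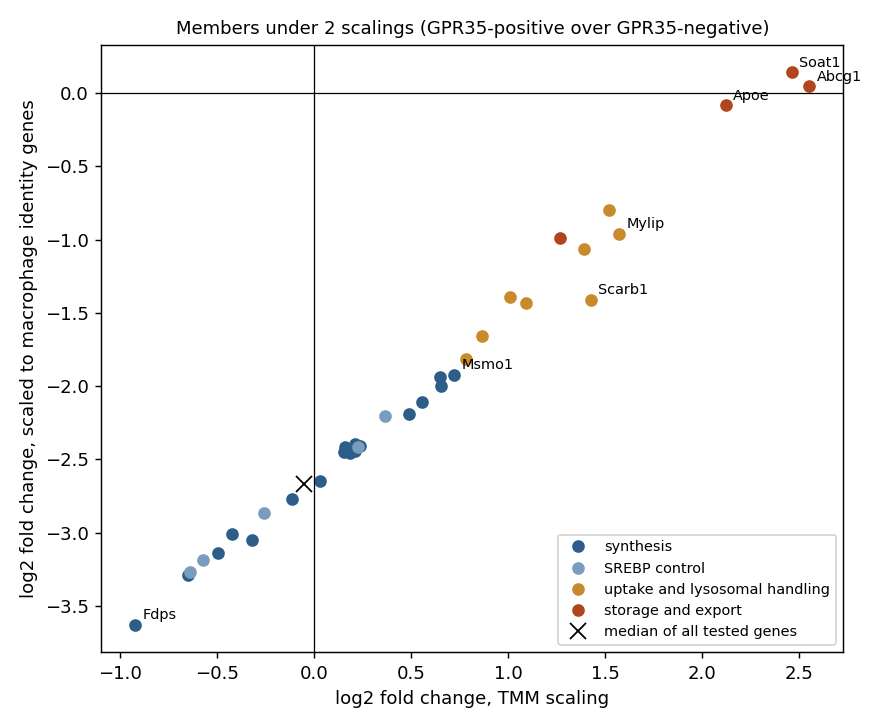
Log2 fold change of the 35 genes with the usual scaling (horizontal axis) and scaled to the macrophage identity genes (vertical axis), coloured by role, with a cross at the median of all tested genes. Values move down with the median of all genes, and Soat1 and Abcg1 are the only 2 of the 35 genes above 0 on the vertical axis (0.14 and 0.04).

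Neighbouring pathway genes were read from lists of their known roles. Over all genes tested with TMM scaling, 18.5% were called higher and 19.5% lower. Among LXR and its targets, 8 higher and 0 lower of 12 passed, with a median of 1.34. Nr1h3, which encodes LXR alpha, was at 46.4 ± 15 against 6.34 ± 1.35 CPM (2.87 ± 0.27, edgeR adjusted p = 1.52e-04), whereas Nr1h2, LXR beta, was at 90.9 ± 10.8 against 97.5 ± 8.41 CPM and did not pass (-0.10 ± 0.12, adjusted p = 0.547). Nr1h2 was named after its value was seen. Apoc2, an activator of lipoprotein lipase (3.89 ± 0.40), and Arl4c, a small GTPase linked to cholesterol export (2.70 ± 0.29), were higher too. Among other genes of lipid uptake, transfer and storage, 10 higher and 0 lower of 23 passed, with a median of 0.70. Those with the smallest p were Nceh1, a hydrolase of cholesteryl ester (1.70 ± 0.22), Plin2, a coat protein of lipid droplets (2.26 ± 0.39), and Stard3, an endosomal sterol carrier (0.99 ± 0.20). Like the uptake and export genes, these lists lay above the median of all genes, and with identity scaling the 4 related lists together held 1 gene that was called higher and 50 that were called lower of 64 tested, beside 86% lower of all genes.

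Other genes of sterol and isoprenoid synthesis, 3 higher and 2 lower of 16, had a median of -0.08, close to that of all genes. Over all genes tested, 18.5% were called higher and 19.5% lower, so these counts were near the background. Dhdds, which builds dolichol for protein glycosylation, was lower (-0.63 ± 0.12, edgeR adjusted p = 0.00441) and Erlin1, a membrane protein that binds the SREBP complex, higher (0.93 ± 0.23, adjusted p = 0.0115). Fatty acid synthesis genes were spread widely, 2 higher and 4 lower of 13, with a median of -0.21 and a range of -2.92 to 0.92. The same shares of all genes, 18.5% and 19.5%, stand beside these counts. Of the 4 desaturases of the list, 2 were lower, 1 was higher and 1 did not pass. Fads2 was at 6.46 ± 3.16 against 38.3 ± 9.26 CPM (-2.57 ± 0.36, adjusted p = 0.00103) and Fads1 at 126 ± 14.6 against 66.6 ± 18.1 CPM (0.92 ± 0.19, adjusted p = 0.00652). Named after their values were seen, Scd1 was lower (-2.92 ± 0.64, adjusted p = 0.00741) and Scd2 did not pass (-0.46 ± 0.21, adjusted p = 0.117). Acss2, which makes acetyl-CoA from acetate, was lower (-1.44 ± 0.29, adjusted p = 0.00501).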

How the data were processed

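RNA was sequenced from 8 libraries. Per the labels' protocols, sorted cells were lysed in Trizol and taken through SMART-Seq v4 and Nextera XT kits, which mark no strand and add no molecular identifiers. The deposited values are raw read counts per gene with a gene length. STAR 2.5.2a, R 3.4.2 and mm10 are named in the submitters' processing notes, and the sources used here name no counting tool. Another 9 genes without a symbol held 0.0179% of counts and stayed out.

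The test was edgeR 4.0.16 in R 4.3.3 on these counts (filterByExpr with minimum count 10 and minimum total 15, TMM, robust quasi-likelihood F-test, no block), with Benjamini-Hochberg adjustment over 14184 genes at 0.05. The SE was taken as the log2 change divided by the root of the F statistic. CPM uses TMM library sizes, log2 CPM a prior count of 2, and values per length divide CPM by the deposited length in kilobases. All members may be named, and of each related list up to 3 genes with the smallest p past the threshold. Members, lists and scalings were chosen with earlier results of these data known. Other settings were a replicate block, RLE, upper-quartile, library-size and macrophage identity scaling, other filters (none, or 5 CPM in 4 libraries), DESeq2 1.42.0, limma 3.58.1 voom and leave-outs. Same-numbered libraries come from the same animal per the labels, and their deviations from the group means correlated across genes at 0.206, 0.206, 0.431 and 0.0637. The highest such correlation with a library of another animal was 0.104, 0.104, 0.237 and 0.237. For replicate 4 it was above that of the own partner, so that pair rests on the labels alone. The fit was checked on simulated data with equal dispersion for all genes, few changed genes balanced in direction and no animal effect. In the real data 38% of genes tested were called, so that check does not cover the choice of scaling.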

Additional observations from a re-analysis of the deposited data

Results flagged for a closer look

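In 70 groups of 4 libraries (35 genes in 2 populations), 5 had a library far from the other 3 relative to the range of its group, where chance gives about 1 in 20. Abca1 stood at 118 CPM in GPR35-negative replicate 1, against 37.0 to 41.8 CPM in the other GPR35-negative libraries. Lrp1 was low in GPR35-positive replicate 2, at 164 CPM against 239 to 251 CPM. In GPR35-positive replicate 1 Fdps was low, at 29.7 CPM against 45.7 to 46.7 CPM. Ebp was high in GPR35-positive replicate 2, at 61.9 CPM against 51.2 to 52.0 CPM. The GPR35-negative library of replicate 2 had 1.31 CPM of Tm7sf2, against 6.27 to 6.88 CPM in the others.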

How the results depend on the processing

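Of the 20 called genes, 8 kept their call in all 12 leave-outs (Msmo1, Fdps, Mylip, Lipa, Npc2, Soat1, Abcg1 and Apoe). The distance between the medians of the 12 and the 23 genes was 0.98 to 1.53 over all settings, with both ends from leave-outs. A scaling moves both medians nearly alike, so the other scalings could hardly change this distance. Leaving out an animal or a library gave 1572 to 2931 higher and 1680 to 3035 lower genes, 1 to 5 higher and 1 to 5 lower of the synthesis and SREBP genes, 6 to 11 higher and 0 lower of the uptake, storage and export genes, and 15 to 27 higher and 4 to 7 lower of the related lists. The replicate block gave 2755 and 2830 genes, 4 and 4, 10 and 0, and 25 and 7 in the same order. Beside the calls of Pmvk, Lss, Insig2, Stard4, Nsdhl and Insig1 given above, it changed no other call of the 35 genes. Library-size scaling, which shifted the median of all genes by -0.29, gave 1692 higher and 4193 lower genes, 0 higher synthesis and SREBP genes, 7 higher uptake, storage and export genes and 13 lower genes of the related lists. Upper-quartile scaling (-0.14) gave 2 higher synthesis and SREBP genes, and limma voom 10 lower genes of the related lists. Identity scaling gave 65 higher and 12196 lower genes, 0 higher and 23 lower, 0 higher and 6 lower, and 1 higher and 50 lower in the same order. With the block as well these were 91 and 11485, 0 and 22, 0 and 4, and 1 and 48.

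Signs of log2 fold changes turned as follows. Identity scaling gave Acat2 -2.65, Hmgcs1 -2.19, Pmvk -2.11, Mvd -1.94, Idi1 -2.44, Fdft1 -2.41, Cyp51 -2.40, Tm7sf2 -1.997, Msmo1 -1.92, Hsd17b7 -2.45, Sc5d -2.40, Dhcr7 -2.46, Insig1 -2.20, Srebf1 -2.42, Lrp1 -0.80, Scarb1 -1.41, Mylip -0.96, Lpl -1.66, Lipa -1.06, Npc1 -1.39, Npc2 -1.43, Stard4 -1.81, Abca1 -0.99 and Apoe -0.0823. With the replicate block and identity scaling the values were Acat2 -2.37, Hmgcs1 -1.92, Pmvk -1.86, Mvd -1.76, Idi1 -2.16, Fdft1 -2.25, Cyp51 -2.16, Tm7sf2 -1.52, Msmo1 -1.67, Hsd17b7 -2.27, Sc5d -2.19, Dhcr7 -2.22, Insig1 -2.06, Srebf1 -2.14, Lrp1 -0.69, Scarb1 -0.69, Mylip -0.81, Lpl -1.58, Lipa -0.96, Npc1 -1.30, Npc2 -1.30, Stard4 -1.55, Abca1 -0.998 and Apoe -0.0761. Library-size scaling gave Acat2 -0.26, Idi1 -0.0722, Fdft1 -0.13, Cyp51 -0.0473, Hsd17b7 -0.13, Sc5d -0.0774, Dhcr7 -0.10 and Srebf1 -0.0597. Acat2 was at -0.11 with upper-quartile scaling, -0.0496 with the filter of 5 CPM, -0.00129 with limma voom, -0.0284 without replicate 1 and -0.0352 without GPR35-negative replicate 1. Over the leave-outs Acat2 ranged up to 0.0948 and Mvk from -0.49 to 0.034, the latter without replicate 4. Apart from the common shift under the scalings, the cause was not tested. Depth limited Tm7sf2 most, at 22 counts in its lowest library.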
